A study of Mus musculus with 5 samples.

Results

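The SOX4 peaks of mouse fibroblast-like synoviocytes (FLS) were compared between untreated cells and cells treated with TNF. Every SOX4 peak on chromosomes 1 to 19 and X was used, 192 from untreated FLS and 543 from TNF-treated FLS, out of 3798 peaks in the 4 lists of the series. A summit is the position of highest signal in a peak. A site was called kept when an untreated and a TNF summit shared a chromosome and lay within 50 bp of each other, gained when only the TNF list held a summit, and lost when only the untreated list did. By this rule 161 sites were kept, 382 were gained and 31 were lost, 574 sites in all.

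The cells were wildtype FLS of C57BL/6 mice, left untreated or exposed to TNF at 10 ng/mL over 16 h. Chromatin was immunoprecipitated with an antibody against SOX4 (Diagenode), and a parallel pair of libraries was made with an antibody against RELA, the p65 subunit of NF-κB (Active Motif). Each library holds the pooled DNA of 3 cultures. A condition is thus 1 library with no replicates, and no p-value is given. The input library that served as control for all lists came from untreated FLS alone. Intervals in parentheses are 95% Wilson intervals for shares and cover counting error only. Peak lists hold no expression values, so the labelled cell type could not be checked against its markers, and a missing peak does not show that signal was absent, because coverage was not analysed here.

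SOX4 is a transcription factor of the SoxC group, with Sox11 and Sox12, and binds DNA through an HMG box that recognises short words around ACAAAG or ACAATG. FLS form the lining of the joint, where they make lubricin, hyaluronan and matrix. TNF turns them towards an inflammatory and invasive state in arthritis, acting largely through NF-κB dimers that contain RELA.

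Windows of 100 bases centred on the summit are given from the mm10 reference, plus strand, for sites on which the results turn. They are strong kept, gained and lost sites, a kept site that carries the repeated words described later, the strongest kept site without a RELA summit, and a lost site whose sequence is repeated in the genome. The gained site at Sgcd has both a fold enrichment among the highest of its class and the commonest word of that class. Capitals mark the SOX words ACAAAG and ACAATG and all other words whose shares are given later, on either strand. Sites in UTRs are not shown. For a site in an upstream region, the gene named is the one with the nearest start site, on either side.
Kept, chr9:91901103-91901202, outside genes and their upstream regions: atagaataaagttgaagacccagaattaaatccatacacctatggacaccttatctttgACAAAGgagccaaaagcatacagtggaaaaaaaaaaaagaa
Kept, chr2:86063923-86064022, upstream of Olfr1035-ps1: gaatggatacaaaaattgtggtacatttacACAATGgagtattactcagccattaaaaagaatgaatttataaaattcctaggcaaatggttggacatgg
Kept, chr1:150465557-150465656, intron of Prg4: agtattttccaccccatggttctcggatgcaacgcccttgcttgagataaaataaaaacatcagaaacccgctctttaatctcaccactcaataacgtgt
Kept, chr11:25100121-25100220, outside genes and their upstream regions: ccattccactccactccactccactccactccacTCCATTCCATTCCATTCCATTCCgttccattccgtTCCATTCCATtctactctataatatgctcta
Gained, chr14:10387388-10387487, intron of Fhit: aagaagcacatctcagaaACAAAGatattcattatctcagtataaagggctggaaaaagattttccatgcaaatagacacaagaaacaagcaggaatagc
Gained, chr11:47341561-47341660, intron of Sgcd: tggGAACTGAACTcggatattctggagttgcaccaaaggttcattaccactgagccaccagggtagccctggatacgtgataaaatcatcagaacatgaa
Lost, chr17:87944609-87944708, upstream of AC087233.1: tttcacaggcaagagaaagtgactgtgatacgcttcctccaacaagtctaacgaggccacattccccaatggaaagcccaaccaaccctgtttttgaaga
Lost, chr9:3016812-3016911, intron of Gm10720 and Gm26870: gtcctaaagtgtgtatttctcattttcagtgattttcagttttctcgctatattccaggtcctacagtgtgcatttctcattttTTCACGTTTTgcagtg

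The TNF list held most untreated SOX4 summits and many more. Kept sites made up 83.9% of the untreated list (78.0% to 88.4%) and 29.7% of the TNF list (25.96% to 33.6%). Kept summits lay close together, with a median distance of 4 bp and a largest distance of 30 bp, and 129 of the 161 pairs lay within 10 bp. The nearest lost and gained summits were 144 bp apart, and the next lost summit lay 39751 bp from any TNF summit. The 50 bp limit therefore fell in a gap between 30 bp and 144 bp that held no pair. The classes depended on the length of the lists. When the TNF list was limited to its 192 summits of highest −log10 q, 122 sites were kept, and 70 were gained and 70 lost. With a −log10 q of at least 10 in both lists, 97.1% of the untreated summits were kept and 3 were lost.

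Kept sites were the strong sites of both lists. The fold enrichment, the signal of a peak relative to the local background, had a median of 12.7 at kept sites in the TNF list (lowest 5.23, highest 29.0). At gained sites the median was 8.08 (2.56 to 19.01), and at lost sites, in the untreated list, it was 5.79 (1.58 to 8.46). Of the 382 gained sites, 17 exceeded the median of the kept sites, and 0 of the 31 lost sites exceeded the untreated median of the kept sites, 8.55. Fold enrichment decides whether a peak is listed and so takes part in the classes, which makes these values a description.

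**Figure D1:**
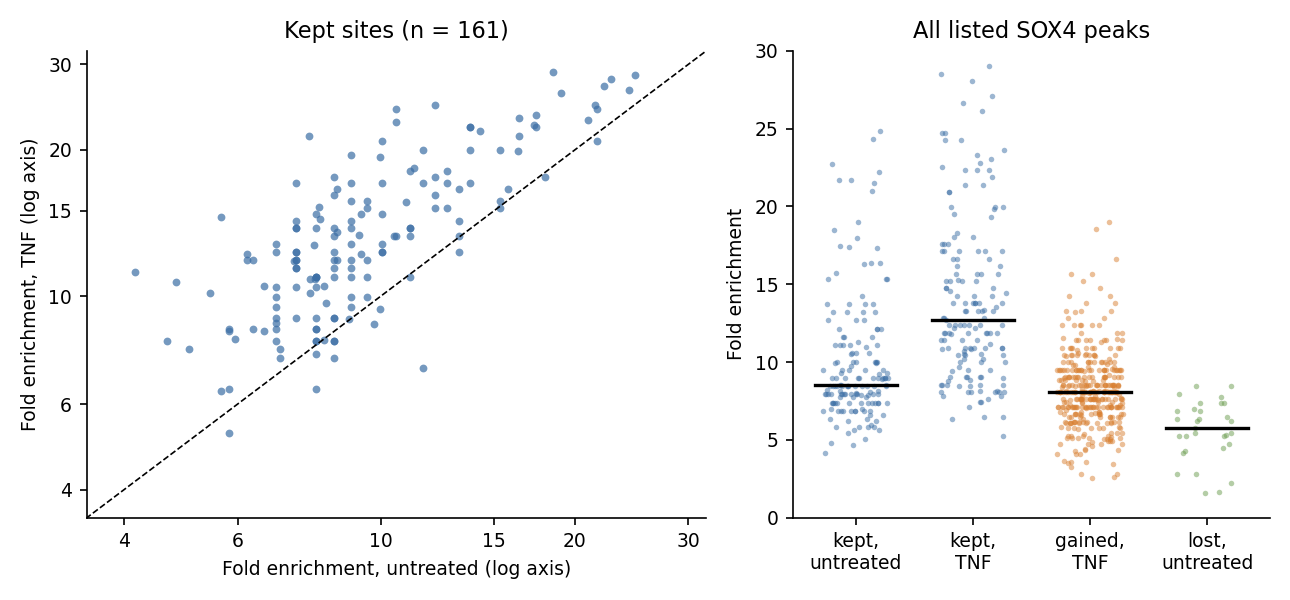
Left, fold enrichment at the 161 kept sites in the untreated list (x axis) and the TNF list (y axis), on log axes, with the dashed line at equal values. Right, fold enrichment of every kept, gained and lost peak, with the median as a bar: 8.55 and 12.7 at kept sites without and with TNF, 8.08 at gained and 5.79 at lost sites.

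The ranks showed the same order. In the TNF list the 29 summits of highest fold enrichment were all kept, and the first gained summit stood at rank 30. Kept summits were 83 of the first 100, 41 of the next 100, 17 and 15 in ranks 201 to 300 and 301 to 400, 4 in ranks 401 to 500 and 1 of the last 43. In the untreated list the first lost summit stood at rank 86. Among the last 48 untreated summits, 26 were kept and 22 were lost.

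**Figure D2:**
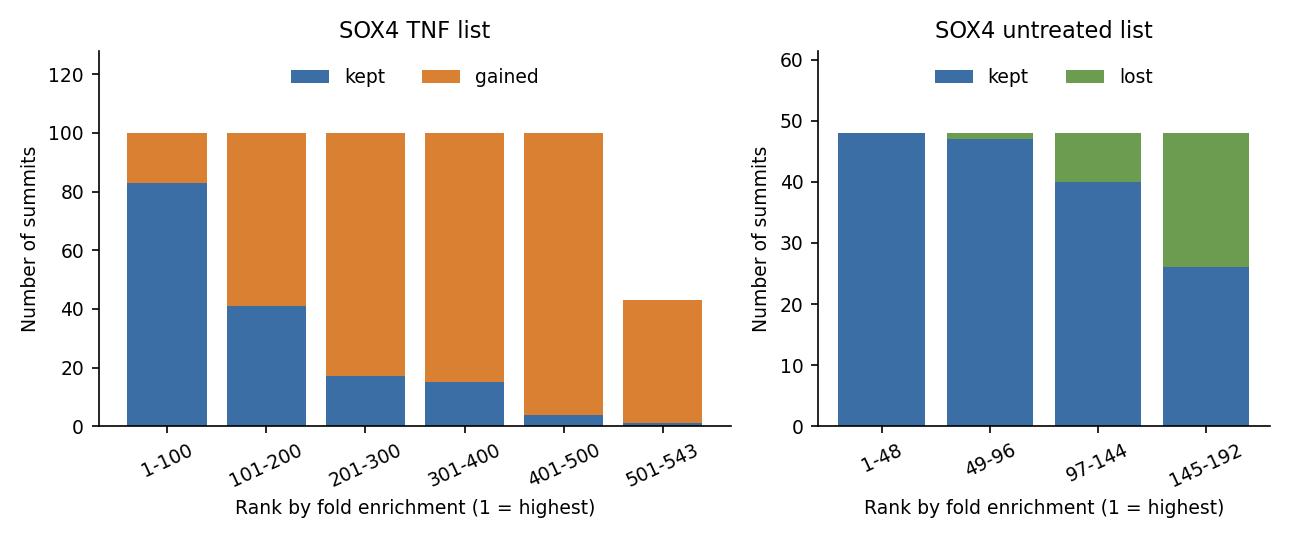
Number of kept and gained summits along the TNF list (left) and of kept and lost summits along the untreated list (right), by rank of fold enrichment. Kept summits fall from 83 of the first 100 to 1 of the last 43 in the TNF list, and from 48 to 26 of 48 in the untreated list.

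At the kept sites the fold enrichment was mostly higher with TNF. The median log2 ratio of TNF over untreated was 0.46 (0.38 to 0.51, from order statistics), with a range of -0.71 to 1.47, and 15 of the 161 sites were lower with TNF. The median log2 ratio was 0.33 at the 48 kept sites in the first 48 untreated ranks, 0.47 at the 47 in ranks 49 to 96, 0.47 at the 40 in ranks 97 to 144 and 0.58 at the 26 in the last 48. Sites near the untreated threshold had to be high enough to be listed, so the ratio and the rank are not independent. The depth of the 2 libraries was not given in the lists, and its part in the ratio was not tested.

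The largest rise among kept sites was at Rn7s2, a 7SL RNA gene of the signal recognition particle, whose peak on chromosome 12 (69361177 to 69361246) went from 7.74 without TNF to 21.4 with TNF. Its neighbour Rn7s1 (69159528 to 69159593) had 21.7 without TNF and 20.9 with TNF. Both summit windows occur 2 times in the reference, so reads could be split between copies. A further Rn7s2 summit (69361414 to 69361469) was gained, with 5.79 and a window that occurs 3 times. The gene therefore counts as both kept and gained. The next rise was 18558 bp upstream of Col6a3, which encodes a chain of collagen VI, from 4.17 to 11.2. A site 814 bp from the start site of Gm45063 followed, from 5.65 to 14.6. Then came a site of chromosome X, 78548 bp from 4930595M18Rik, from 7.40 to 17.1. The lowest ratios were at a site 22265 bp from Gm14235 (11.6 to 7.13) and in a coding exon of Il15 (7.93 to 6.45). These were followed by a site 17130 bp from Gm47008 (8.46 to 7.46) and an intron of Mast4 (9.77 to 8.76). All 8 kept sites of largest or lowest ratio had a RELA TNF summit within 50 bp, as did 97.5% of all kept sites.

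Peaks were narrow. The median width was 67 bp at kept sites with TNF, 57 bp at the same sites without TNF, 54 bp at gained sites and 53 bp at lost sites, and the narrowest SOX4 peak spanned 50 bp, the length of a sequencing read. At 128 of the 161 kept sites the peak was wider with TNF. Widths of at most 60 bp were found for 38 of the kept, 286 of the gained and 23 of the lost peaks. Only 14 peaks were wider than 100 bp, 5 kept, 7 gained and 2 lost. The widest were a kept peak of 341 bp on chromosome 17 (4626244 to 4626584), a gained peak of 197 bp at Sox4 and a kept peak of 153 bp at Prg4.

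The 6 kept sites of highest fold enrichment with TNF ranged from 26.1 to 29.0, and from 18.5 to 24.8 without TNF. The strongest lay on chromosome 9 (91901113 to 91901191), 59965 bp from the start site of Gm31409, and went from 18.5 to 29.0. Further sites were in an intron shared by Gpr75 and Asb3 and in an intron of Add1, which encodes the cytoskeletal protein adducin. Others lay in upstream regions, 6091 bp from the start site of Olfr1035-ps1 and 37798 bp from that of Gm4600. These 5 sites held a summit in both RELA lists, as did 92.5% of all kept sites.

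The sixth was Prg4, which encodes lubricin, the joint lubricant made by FLS. Its peak on chromosome 1 (150465558 to 150465710) lay in an intron 558 bp from the start site, was 153 bp wide in both SOX4 lists, and went from 19.02 without TNF to 26.1 with TNF. The nearest RELA summits lay 328140 bp away in the untreated list and 167077 bp away in the TNF list. Prg4 was the only kept site in the first 100 TNF ranks without a RELA summit in either list. The other 3 kept sites without RELA had fold enrichments with TNF of 8.08, 8.08 and 6.38.

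The 6 gained sites of highest fold enrichment were in introns of Lrrfip2 (19.01), Fhit (18.5), Lmln (16.6), Sgcd (15.7) and Tc2n (15.2), and at a site 86135 bp from the start of Ankfn1 (15.7). Fhit is a tumour suppressor gene that spans a fragile site, and Sgcd encodes delta-sarcoglycan of the dystrophin complex. Each of the 6 held a RELA summit in the untreated list as well as in the TNF list, as did all 17 gained sites in the first 100 TNF ranks. The strongest gained site without any RELA summit lay 37876 bp from the start site of Gm25415, with a fold enrichment of 10.4 at rank 178.

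The 6 lost sites of highest fold enrichment ranged from 7.40 to 8.46. Among them were sites in the 3′ UTR of Ube3a, the imprinted ubiquitin ligase gene (8.46), and in introns of Lpcat1 (7.93), Ccdc61 (7.40) and Pcdh15 (7.40). Others were in upstream regions, 5268 bp from the start site of AC087233.1 (8.46) and 1065 bp from that of Gm3221 (7.77). The Ube3a site held summits in both RELA lists, and the Lpcat1 site in the untreated RELA list alone.

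Among the sites as classed here, most kept sites were also RELA sites, fewer gained sites were, and few lost sites were. A RELA summit from untreated FLS lay within 50 bp of 92.5% of kept (87.4% to 95.7%), 44.8% of gained (39.9% to 49.8%) and 9.68% of lost summits (3.35% to 24.9%). A RELA summit from TNF-treated FLS lay within 50 bp of 97.5% (93.8% to 99.03%), 58.6% (53.6% to 63.5%) and 6.45% (1.79% to 20.7%) of them. The intervals of the 3 classes did not overlap for the TNF list, nor for the untreated list. Among single-copy summits, described later, 5 of 15 lost summits had a RELA untreated summit (15.2% to 58.3%) and 4 of 15 a RELA TNF summit (10.9% to 51.95%), and the first interval overlapped that of gained summits. With the TNF list limited to 192 summits, 99.2% of kept and 98.6% of gained summits had a RELA TNF summit, with overlapping intervals. The share of lost summits was then 54.3% (42.7% to 65.4%). With all distances limited to 10 bp, 31.7% of lost summits (21.6% to 44.0%) had a RELA summit in each list. That interval overlapped those of gained summits. At 149 kept and 151 gained sites both RELA lists held a summit. Thus 171 of the 382 sites where SOX4 was listed only with TNF carried a RELA peak in untreated cells.

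Over the whole classes, RELA peaks were stronger at kept than at gained sites. Kept sites also had higher SOX4 TNF ranks, with a median of 98 against 341.5, and RELA strength was not compared at like ranks. In the RELA TNF list the median fold enrichment was 15.5 at 157 kept sites (13.5 to 18.5, from order statistics) and 9.98 at 224 gained sites (9.48 to 10.5). At sites with a summit in both RELA lists, the median log2 ratio of RELA with TNF over without was 0.33 at kept (0.26 to 0.40) and 0.22 at gained sites (0.15 to 0.26), and RELA was higher with TNF at 137 of 149 and 128 of 151 of them.

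RELA summits followed the rank of the SOX4 peak. In the first 100 TNF ranks 82 of 83 kept and 17 of 17 gained sites had a RELA untreated summit. In ranks 101 to 200 it was 41 of 41 kept (91.4% to 100%) and 83.1% of gained sites (71.5% to 90.5%). These intervals did not overlap. In ranks 201 to 400, where the median SOX4 fold enrichment was 8.56 for kept and 8.49 for gained sites, the shares were 78.1% (61.2% to 89.0%) and 46.4% (39.1% to 53.97%), with intervals that did not overlap. In ranks 401 to 543 they were 1 of 5 and 19.6% (13.8% to 26.97%). In the last 48 untreated ranks, a RELA untreated summit lay near 20 of the 26 kept and 0 of the 22 lost sites. The 22 lost sites allow a share of up to 14.9%, the upper Wilson bound.

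**Figure D3:**
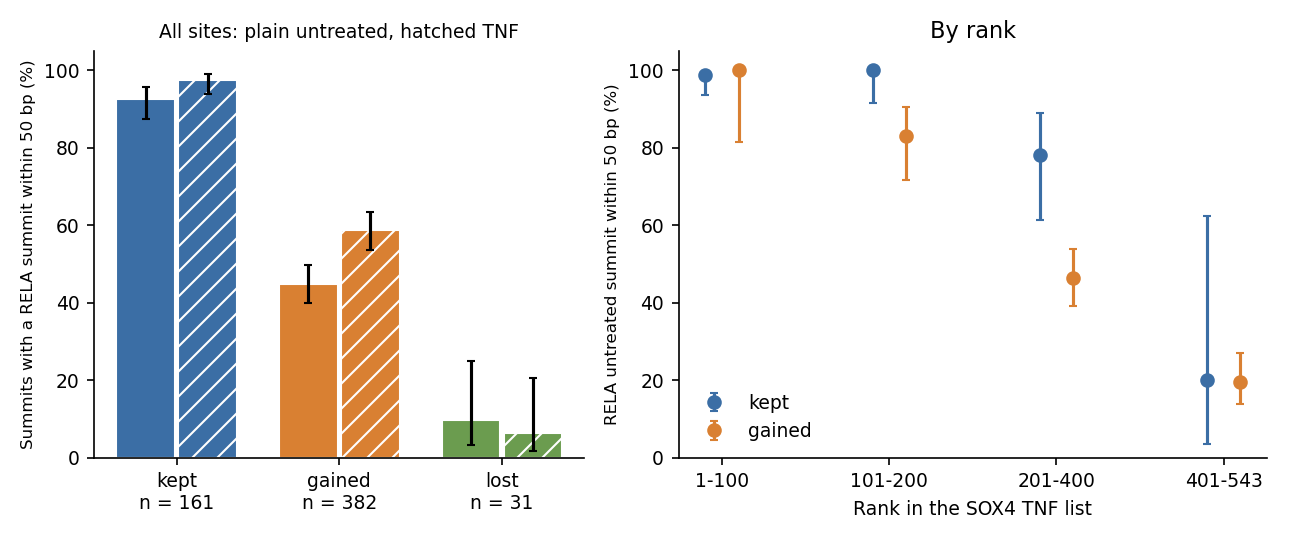
Left, share of kept, gained and lost summits with a RELA summit within 50 bp, in the untreated (plain bars) and TNF list (hatched bars). Right, share of kept and gained summits with a RELA untreated summit, by rank in the SOX4 TNF list. Error bars are 95% Wilson intervals. The left shares fall from 92.5% of kept to 9.68% of lost summits for RELA untreated, and the classes separate in ranks 101 to 200 and 201 to 400.

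Kept and gained summits lay in introns and upstream regions about as often as bases of the genome do. Each summit was placed with the GENCODE annotation, coding sequence first, then untranslated regions (UTRs), other exons, introns, the 50 kb upstream of a gene and all other sequence. Introns held 42.9% of kept (35.5% to 50.6%), 41.4% of gained (36.5% to 46.4%) and 41.9% of lost summits (26.4% to 59.2%), against 42.4% of the bases of these chromosomes. Upstream regions held 27.3% (21.03% to 34.7%), 31.2% (26.7% to 35.96%) and 38.7% (23.7% to 56.2%), against 29.1% of bases. Coding sequence held 1 kept, 5 gained and 2 lost summits, UTRs held 3, 7 and 1, and other exons held 5, 14 and 0. The intervals of these shares held the genome value with 2 exceptions. Other exons held 3.66% of gained summits (2.20% to 6.06%), against 1.96% of bases. Coding sequence held 6.45% of lost summits (1.79% to 20.7%), against 1.42% of bases, and both of those summits lay in Gm11168. With the upstream region taken before the gene body, upstream held 51.6% of kept (43.9% to 59.1%), 59.9% of gained (54.96% to 64.7%) and 77.4% of lost summits (60.2% to 88.6%), against 55.0% of bases, and the interval of the lost summits lay above that value.

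**Figure D4:**
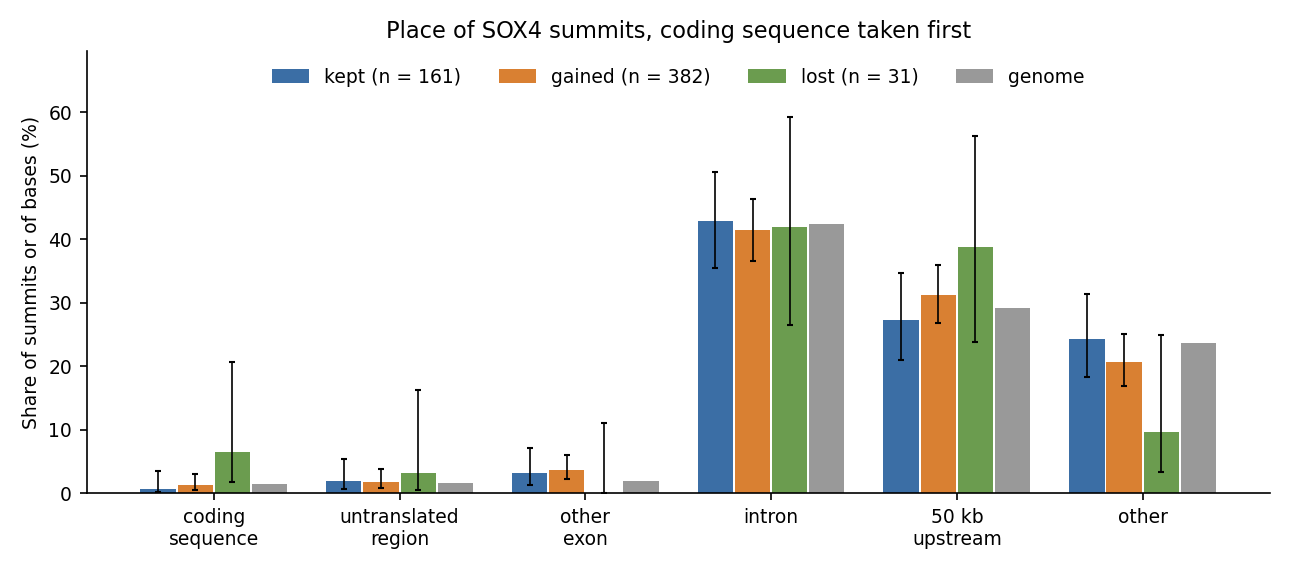
Share of kept, gained and lost summits in each annotation class with 95% Wilson intervals, and share of all bases of chromosomes 1 to 19 and X in grey. In introns the classes stand at 42.9%, 41.4% and 41.9%, beside 42.4% of bases.

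Among the sites as classed here, lost summits lay nearer to start sites than kept or gained summits. A start site of any annotated gene lay within 10000 bp of 33.5% of kept (26.7% to 41.1%), 36.6% of gained (32.0% to 41.6%) and 64.5% of lost summits (46.9% to 78.9%), and 29.97% of bases lie as near. The median distance was 19044 bp, 16348.5 bp and 7161 bp. The separation of the lost class was lost under 3 alternatives, in which its interval overlapped those of kept and gained summits. Its share was 53.3% (30.1% to 75.2%, 8 of 15) among single-copy summits, described later, 46.0% (34.3% to 58.2%) with summits within 10 bp and 45.7% (34.6% to 57.3%) with equal list sizes. The median distance of lost summits was then 8465 bp, 11269 bp and 11729 bp. Within 1000 bp lay 12 kept, 18 gained and 2 lost summits, which is 7.45% (4.31% to 12.6%), 4.71% (3.00% to 7.32%) and 6.45% (1.79% to 20.7%), against 3.87% of bases.

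Among kept sites, a protein-coding start site, coding sequence or UTR was met at Prg4, Lpl, Il15, D10Wsu102e, Rps29 (beside Rn7s1), Gm28557 and Tigd3. The Lpl summit lay in the 5′ UTR, 60 bp from the start site of this lipoprotein lipase gene, with 7.93 without and 10.5 with TNF. The Tigd3 summit was also in a 5′ UTR, 84 bp from the start site, with 7.40 and 9.03. Among gained sites were S100a8, a subunit of the inflammatory protein calprotectin, with a summit 315 bp from its start site (8.56), the 5′ UTR of Gpsm3 (9.03) and a coding exon of Egln1, an oxygen-sensing prolyl hydroxylase, 436 bp from its start site (9.51). Further gained summits lay in coding exons of Gm7361, Zfp420, Usp17la and Myom2, in a 5′ UTR of Nrd1, in the 3′ UTRs of Spib, Gnl1, Sox4 and Sox11, and in an intron of Mup12. Among lost sites were Ube3a, Gm11168 and Gm10719.

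A kept summit lay in the body or up to 50 kb upstream of 248 of 53843 annotated genes (0.461%), a gained summit of 622 (1.16%) and a lost summit of 82 (0.152%). Of the 21755 protein-coding genes, 145 had a kept (0.667%), 306 a gained (1.41%) and 36 a lost summit (0.165%). Kept and gained genes shared 14, which is 5.65% of the kept and 2.25% of the gained genes, and kept and lost genes shared 0. Gained and lost genes shared 6, which is 0.965% of the gained and 7.32% of the lost genes. The shares of all annotated genes are the background for the gene lists that follow. Apart from the study's own list, these lists were chosen with earlier results of these data known. Their shares are thus descriptions and not tests. The study had already reported peaks at Il15, Kat6b, Ncoa1, Setbp1, Junb, Map3k8, Sox4 and Sox11 from these same data.

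Few genes of the TNF response had a SOX4 summit, as was the case for all genes, and lists of this size cannot show a share below the background. Of 26 NF-κB components and feedback inhibitors, 0 had a kept, gained or lost summit, and of 26 cytokine, chemokine and adhesion genes 1 had a kept summit (3.85%). That gene was Il15, the interleukin that sustains natural killer and memory T cells. Its kept peak on chromosome 8 (82343959 to 82344010) lay within a coding exon, with a RELA TNF summit and no RELA untreated summit within 50 bp.

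Of 25 AP-1 and MAP kinase genes, 2 had a gained summit, Junb and Map3k8, and 0 had a kept or lost one. The gained summit 43932 bp upstream of Junb, an AP-1 subunit, lay 4173 bp upstream of Trir, in an intron of another gene. Its fold enrichment was 12.4. The summit 15728 bp upstream of Map3k8, the kinase that links TNF signalling to ERK, lay in an exon of another annotated gene and had 10.9. Both held a summit in each RELA list.

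Of 4 SoxC genes and partners, Sox4 and Sox11 had gained summits. Sox4 had a pair in its 3′ UTR on chromosome 13, with fold enrichments of 8.82 (28951045 to 28951241) and 4.96 (28951291 to 28951354). The lincRNA Gm26735 overlaps both. Sox11 had 1 in its 3′ UTR on chromosome 12 (27340695 to 27340823), with 8.56 and a width of 129 bp. The nearest RELA untreated summit was 82 bp from the Sox11 summit, beyond the 50 bp limit, and the nearest RELA TNF summit was 216521 bp away. At the stronger Sox4 summit RELA was listed in both conditions, with the untreated summit at 33 bp and the TNF summit at 27 bp.

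Of 31 genes of extracellular matrix and proteases, 2 had a kept (6.45%) and 2 a gained summit (6.45%). The kept summits were at Prg4 and Col6a3, and the gained ones in introns of Hmcn1 (11.4), which encodes hemicentin, and Lama2 (6.12), a laminin chain. Of 31 TGF-beta, BMP and Wnt genes, 2 had gained summits. They lay in an intron of Tcf7l2 (10.9), the Wnt effector, and 22265 bp and 44580 bp upstream of Tgfbr3 (9.91 and 5.10), a co-receptor for TGF-beta. The Tgfbr3 summit at 44580 bp lay in an intron of another gene. No matrix, Wnt or SoxC gene had a lost summit.

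Of 24 chromatin coregulators, 3 had a kept summit (12.5%), Kat6b, Ncoa1 and Setbp1, and 0 had a gained or lost one. The study had already reported peaks at these 3 genes, so this share was in part fixed by the choice of list. Kat6b, a histone acetyltransferase gene, went from 7.77 without TNF to 10.9 with TNF. Ncoa1, a nuclear receptor coactivator gene, went from 7.93 to 14.7, and Setbp1, which encodes a SET-binding protein, from 9.51 to 15.7. The 3 summits were intronic, and both RELA lists held a summit at each. Of 9 FLS markers 1, Prg4, had a summit, and of 10 macrophage, leukocyte and endothelial markers 0 had one.

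Among the genes that the study lists as dependent on SoxC and responsive to TNF, 617 were matched to the annotation. A kept summit was near 7 of them (1.13%), a gained summit near 11 (1.78%) and a lost summit near 1 (0.162%). Rn7s2 was among both the 7 and the 11. Over all annotated genes the shares were 0.461%, 1.16% and 0.152%, and over protein-coding genes 0.667%, 1.41% and 0.165%. The list came from other samples of the same study.

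Taken whole, the classes differed in part in the sequence at their summits. The reference writes repetitive sequence as soft-masked bases. Such a base lay at 56.5% of kept (48.8% to 63.9%), 56.0% of gained (51.0% to 60.9%) and 29.0% of lost summits (16.1% to 46.6%), and 34.3% of bases are soft-masked. In TNF ranks 101 to 200, 36.6% of kept (23.6% to 51.9%) and 62.7% of gained summits (49.95% to 73.9%) were soft-masked, with intervals that overlapped narrowly. In the first 100 ranks the shares were 73.5% and 76.5%.

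The 50 bases around the summit occurred more than once in the reference at 58.1% of lost (40.8% to 73.6%), 4.35% of kept (2.12% to 8.70%) and 8.64% of gained summits (6.22% to 11.9%). The 18 lost windows of this kind had 2 to 7 copies and a median fold enrichment of 5.004, and the 13 lost windows with 1 copy had 6.87. Of the 33 gained multi-copy summits, 30 stood in TNF ranks 401 to 543. Lost summits lay together in a few places, with 5 on chromosome 14 between 41 and 54 Mb, all multi-copy, 4 on chromosome 5 between 94 and 97 Mb and 3 on chromosome 9 between 3 and 4 Mb. The 3 on chromosome 9 had the lowest fold enrichments of the untreated list, 2.24, 1.63 and 1.58, and shared the word AAAACGTGAA. This word was picked as the commonest of the lost windows, and 0.0102% of all windows hold it. It was in 0 kept and 0 gained windows, but so rare a word allows no comparison of the classes. How the authors treated reads that map to several places was not given in the sources used here, and its part in the lost class was not tested. Among single-copy summits alone, 91.0% of the untreated summits were kept and 15 had no partner, which were the 13 single-copy lost sites and 2 kept sites whose TNF window was multi-copy.

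**Figure D5:**
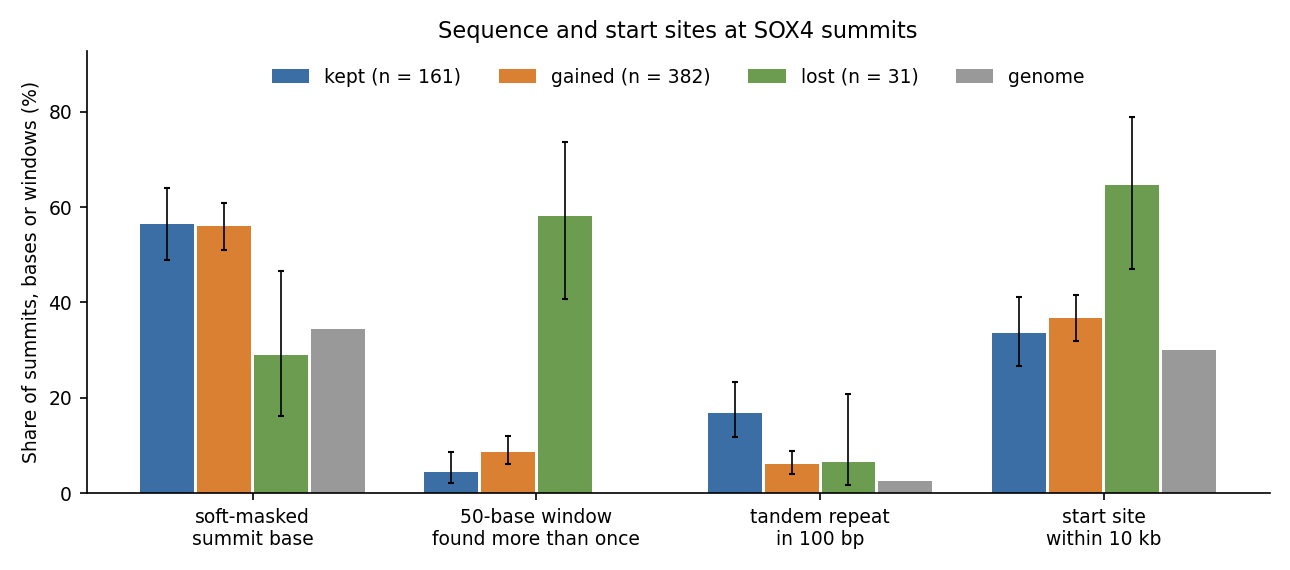
Share of kept, gained and lost summits on a soft-masked base, with a 50-base window found more than once, with a tandem repeat in 100 bp, or with a start site within 10 kb, with 95% Wilson intervals. Grey bars give the share of bases or of windows in the genome, which was not computed for multi-copy windows. Multi-copy windows stand at 58.1% of lost and 4.35% of kept summits.

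The SOX words were about as common at the summits as in the genome. ACAAAG, on either strand, was present in 9.94% of kept (6.21% to 15.5%), 10.5% of gained (7.78% to 13.9%) and 3.23% of lost windows of 100 bp (0.572% to 16.2%), against 9.21% of all 100 bp windows of these chromosomes. ACAATG was present in 11.2% (7.19% to 17.0%), 6.81% (4.69% to 9.79%) and 3.23% (0.572% to 16.2%), against 6.34%, and the kept interval lay just above this value. The AP-1 word TGANTCA was present in 1.86%, 2.88% and 6.45%, against 2.93%. The κB consensus of NF-κB was present in 0.621% of kept (0.110% to 3.43%), 0.524% of gained (0.144% to 1.89%) and 0 of 31 lost windows, which allows a share of up to 11.0% (the upper Wilson bound), against 0.689%. Matches of a word are no proof of a site, and its lack says only that these letters were not in the window.

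Tandem repeats were more common at kept than at gained sites. A run of at least 24 bases with a unit of at most 6 bases was present in 16.8% of kept (11.8% to 23.3%), 6.02% of gained (4.05% to 8.87%) and 6.45% of lost windows (1.79% to 20.7%), against 2.56% of all windows. In TNF ranks 101 to 200 the shares were 14.6% of kept (6.88% to 28.4%) and 10.2% of gained windows (4.74% to 20.5%), and in ranks 201 to 400 they were 12.5% (4.97% to 28.1%) and 7.14% (4.13% to 12.1%), with overlapping intervals in both. A pair of adjacent GGAAT units was present in 11.2% of kept (7.19% to 17.0%) and 1.83% of gained windows (0.890% to 3.73%) and in 0 of 31 lost windows, against 0.0401% of all windows. At like strength, in ranks 201 to 400, it was present in 3 of 32 kept and 2 of 168 gained windows, with overlapping intervals. The word GCTGGGA was present in 9.32% of kept (5.73% to 14.8%), 5.50% of gained (3.62% to 8.26%) and 3.23% of lost windows (0.572% to 16.2%), against 2.76%.

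The commonest 10-letter words were listed for each class, after the data were seen and with no test. At kept sites they were ATGGAATGGA in 18 of 161 windows (11.2%, against 0.0484% of all windows), CATTCTATTC in 8 (0.0276% of all windows), CTCAGCCTCC in 8 (0.0942%) and GCTGGGATTA in 8 (0.542%). At least 1 of these 4 words was present in 18.6% of kept, 4.71% of gained and 0 of 31 lost windows (upper Wilson bound 11.0%). The words of a class were picked from its own windows, so a higher share there was built in by the choice. The share of all windows with any of the 4 was not computed. The first word overlaps the GGAAT units, as the window at chr11:25100121-25100220 shows. At gained sites the commonest word was AGTTCAGTTC, in 14 of 382 windows (3.66%) and 2 of 161 kept windows, against 0.0694% of all windows. It was followed by AGTAGCTGGG in 10, CTCAGCCTCC in 10 and AAATGCAAAT in 9. As background, GGAAT is the unit of satellite repeats known from primates, and words such as GCTGGGATTA belong to the Alu repeats of primates and the related B1 repeats of mouse. Runs of AGTTCAGTTC are known from repeats of cattle and other ruminants. Read sequences were not analysed here, so the origin of the reads in these peaks was not tested, and neither was whether each kept, gained or lost site marks SOX4 on mouse chromatin.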

How the data were processed

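FLS at passage 3 were used, per the study's methods. Reads of 50 bases, single-end, were aligned by the authors to mm10, and Strand NGS ran MACS against the untreated input. The file headers give 300 as the fragment length and 1e-05 as the limit on p. The submitters' processing notes name MACS2 and mm10. Of each peak's p-value and q-value the deposited lists hold the −log10. The deposited fold change is a linear ratio, the fold enrichment over the background. The study's methods state the same sequencing depth for all samples, but the files hold no read totals, so the depth of each library is unknown. DNA was pooled before deposit, so no test across conditions was possible.

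All SOX4 peaks on chromosomes 1 to 19 and X were used as listed, ranked by fold enrichment, and paired by summits at most 50 bp apart. The 2 SOX4 lists were set beside the RELA lists limited to the same chromosomes. Places and genes came from GENCODE vM21 and bases from the reference of mm10. Soft-masked bases were read from that reference, and each 50-base summit window was searched in its 66 sequences on both strands. Words were searched in 100 bp windows on both strands, and the background was every 100 bp window without unknown bases. The commonest 10-letter words left out simple runs and words that share 6 letters with a word already taken. Medians have 95% intervals from order statistics.

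Named genes are those at the 6 highest fold enrichments of each class, the 4 largest and 4 smallest ratios of kept sites, summits within 1000 bp of a protein-coding start site or in coding sequence or a UTR, and members of 9 gene lists. The members and lists were chosen with earlier results of these data known. 1 gene of the study's own list and the windows of some sites are not reported here. Alternatives were a −log10 q of at least 10, distances of 10 bp and 500 bp, overlapping intervals, midpoints, single-copy summits, merging within 1000 bp, equal list sizes, 5 kb upstream, protein-coding genes, upstream first, nearest start sites, −log10 q for fold, 25 of 50 soft-masked bases and 200 bp windows. Pairing, places and both searches were first checked on simulated data and gave the answers built in. Scripts ran in Python 3.11.15 with scipy 1.17.1 for intervals, numba 0.67.0 for searches, pandas 2.3.3 and numpy 2.4.6 for tables and matplotlib 3.10.9 for plots.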

Additional observations from a re-analysis of the deposited data

How the results depend on the processing

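No paired analysis was possible because the cultures of a condition were pooled into 1 library. The alternatives gave 821 values for 91 results. Of these, 670 lay inside the reported interval or were within 1.5 times a count, 151 moved and 0 reversed. Where values moved and the setting itself does not fix them, the cause was not tested. Read depth and coverage, which limit every list, were not analysed here. Distances of 500 bp, overlapping intervals, midpoints and merging within 1000 bp moved none of the class counts, medians, RELA shares, upstream shares or gene counts beyond those limits.

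With a −log10 q of at least 10 there were 102 kept and 3 lost summits, and 97.1% of untreated summits were kept. RELA untreated summits then lay near 99.02% of kept and 67.3% of gained summits, and RELA TNF summits near 82.4% of gained summits. Multi-copy windows were 2.11% of gained and 33.3% of lost, median fold enrichments were 15.2, 9.10 and 8.46 for kept, gained and lost, and kept genes were 149.

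With summits within 10 bp, 63 were lost and 67.2% of untreated summits were kept. RELA untreated and TNF summits within 10 bp lay near 82.9% and 87.6% of kept and 34.3% and 47.1% of gained summits. For lost summits both shares were 31.7%. Of lost summits 30.2% were multi-copy, with a median fold enrichment of 6.99.

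With equal list sizes, 70 were gained and 70 lost, and 63.5% of untreated summits were kept. RELA untreated and TNF summits lay near 99.2% and 99.2% of kept and 88.6% and 98.6% of gained summits. For lost summits the shares were 44.3% and 54.3%. Of gained summits 21.4% were upstream, 65.7% soft-masked and 1.43% multi-copy, and 25.7% of lost summits were multi-copy. Median fold enrichments were 14.3 for kept and 11.4 for gained, the median log2 ratio was 0.52, and gained genes were 119.

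With single-copy summits, 15 had no TNF summit, 91.0% of untreated summits were kept, a RELA TNF summit lay near 63.6% of gained summits, the lost median was 6.99, and multi-copy shares were 0 in each class by construction.

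The upstream share of kept, gained and lost summits was 3.73%, 6.28% and 12.9% at 5 kb (5.81% of bases), 17.4%, 19.6% and 38.7% with protein-coding genes (16.9%), and 51.6%, 59.9% and 77.4% with upstream first (55.0%). The interval of the lost summits held the genome value at 5 kb (5.13% to 28.9%) and lay above it with protein-coding genes (23.7% to 56.2%) and upstream first. Kept and gained genes were 99 and 236 at 5 kb, and 161 and 377 with the nearest start site alone. With −log10 q for fold, the median log2 ratio at kept sites was 0.92.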

Other observations

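The genes near each class differed in kind only in part. Protein-coding genes were 58.5% of the 248 genes with a kept summit (52.3% to 64.4%), 49.2% of the 622 with a gained summit (45.3% to 53.1%) and 43.9% of the 82 with a lost summit (33.7% to 54.7%), against 40.4% of all annotated genes. These 3 intervals overlapped. Pseudogenes were 13.7% of the kept (9.98% to 18.5%), 21.2% of the gained (18.2% to 24.6%) and 29.3% of the lost genes (20.5% to 39.9%), against 23.6%. Only the kept and lost intervals stood apart. Predicted genes, named Gm and a number, were 33.1% (27.5% to 39.1%), 41.6% (37.8% to 45.6%) and 58.5% (47.7% to 68.6%), against 46.8%. Here the lost interval lay above those of kept and gained genes, which overlapped. Zinc finger genes named Zfp were 2.82% of the kept (1.37% to 5.71%), 0.965% of the gained (0.443% to 2.09%) and 3.66% of the lost genes (1.25% to 10.2%), against 0.782% of all genes. Olfactory receptor genes were 2.42%, 0.804% and 0 of 82, against 2.61%. Genes of 1 family lie in clusters, so these counts are not independent.

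Gained summits were spread over all chromosomes, from 0.0737 per Mb on chromosome 16 to 0.233 per Mb on chromosome 7, with 0.149 per Mb over all. The ratio of TNF to untreated summits ran from 1.78 on chromosome 16, where all 9 untreated summits were kept, to 5 on chromosome 19, where 2 untreated and 10 TNF summits were listed. Another summit of the same class lay within 1 Mb of 7.45% of kept (4.31% to 12.6%), 26.4% of gained (22.3% to 31.1%) and 35.5% of lost summits (21.1% to 53.1%). Classes of unequal size differ in how near their members lie, so these shares are not compared.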
